A study of Drosophila melanogaster with 15 samples.

Results

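The genes described here are those whose RNA was high in midgut progenitor cells labelled as overexpressing dpn (dpn OE) and several times lower in each of the 4 other groups of the series. They were chosen from group means of FPKM (fragments per kilobase of gene, scaled to the reads of the library, 3 libraries per group). The mean in dpn OE had to be at least 5 FPKM and at least 4 times the mean plus 0.5 of each other group. Of the 17558 genes in the table, 26 passed these limits. The non-coding lncRNA:CR45156 and the secreted immune factor gene Diedel were dropped by the selection, and 2 further identifiers had no symbol and were kept out. Those 2, FBgn0015393 and FBgn0003732, had dpn OE means of 232 and 40.9 FPKM. These were 4.53 and 4.29 times the highest other group mean plus 0.5. The selection was left with 22 genes, of which 21 are protein-coding and 1, 28SrRNA-Psi:CR45853, is annotated as a pseudogene. Because the dpn OE means chose these genes, their height in dpn OE is given below as a description and carries no test.

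The cells were progenitors of the adult Drosophila melanogaster midgut at day 7, marked with GFP, sorted after elastase digestion, and their RNA was amplified before library preparation. The 5 groups of 3 libraries are wild type (Ctrl), RNAi against ttk (ttk-RNAi), dpn OE, overexpression of Nicd, the intracellular domain of Notch (Nicd OE), and combined overexpression of seq and Nicd (seq&Nicd OE). Which driver line and construct were used, and on which day or in which batch cells were sorted, is not in the labels. Nor do they say that replicates came from separate flies, so p-values here cover variation between these libraries alone and some of it may be technical. In bulk RNA of this kind, fewer cells of a type and less RNA per cell cannot be told apart.

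The midgut epithelium is renewed by intestinal stem cells, whose daughters become absorptive enterocytes or secretory enteroendocrine cells, with Notch signalling deciding between these fates. Deadpan, the protein made from dpn, is a basic helix-loop-helix repressor of the Hairy and Enhancer of split family, best known for keeping neural stem cells of the fly brain in a self-renewing state. The selected genes with a known role act in water and metabolite transport, glutamate metabolism, protein glycosylation and membrane insertion, tRNA modification, translation, mitochondrial protein synthesis, the nucleolus, chromatin and protein turnover.

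Library depth, estimated from the steps between low FPKM values, in units of 1e6 reads, was highest in the ttk-RNAi libraries (51.1 to 55.9). It was 25.9 to 33.4 for dpn OE and 25.1 to 38.3 for Ctrl, and the lowest library, of seq&Nicd OE, had 24.7. The median FPKM of the 8209 genes that were tested was 6.15 to 7.34 in dpn OE libraries and 3.32 to 5.12 in Ctrl libraries, and the median difference between these groups was 0.50 on the log2(FPKM + 1) scale. The dpn OE group had the highest group mean for 50.3% of the genes tested. The gene dpn itself (2R:8228971-8232330, as are all coordinates here in BDGP6.54) was at 6.48, 7.16 and 4.65 FPKM in the libraries labelled dpn OE and at 2.91, 1.45 and 2.75 in Ctrl. It was far higher in ttk-RNAi, at 290 ± 21.5 (SD, n = 3), and seq&Nicd OE, at 225 ± 65.6, than in the group named for it. The difference between dpn OE and Ctrl was 1.09 on the log2(FPKM + 1) scale (limma, adjusted p = 0.00823), a call that was lost when libraries were scaled to equal medians. Of the exon bases of dpn, 59.3% are shared with a gene on the opposite strand, so its values are uncertain. Whether the construct carries the counted exons of dpn is not in the labels either. The level of dpn RNA alone therefore cannot show whether these libraries overexpress dpn. Below, dpn OE stands for the libraries so labelled, and whether they match the label was not tested.

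Across the 22 genes the dpn OE mean was 4.67 to 116 times the Ctrl mean, with a median of 5.88 times. Over the highest of the 4 other groups the fold was 4.34 to 60.4, with a median of 5.52. For 21 of the 22 genes, all 3 dpn OE libraries lay above all 12 other libraries, a pattern that 32.3% of the genes tested showed and that the selection favours. The exception was Ser8. The lowest selected ratios belonged to CG10214, mRpL4 and Ugt35C1, at 4.09, 4.13 and 4.25, and the genes that just missed were CG8778 at 3.97, pirk at 3.95 and Rab9 at 3.94. Applied with another group in the leading role, the same limits gave 20 genes for Ctrl, 76 for ttk-RNAi, 5 for Nicd OE and 12 for seq&Nicd OE.

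**Figure D1:**
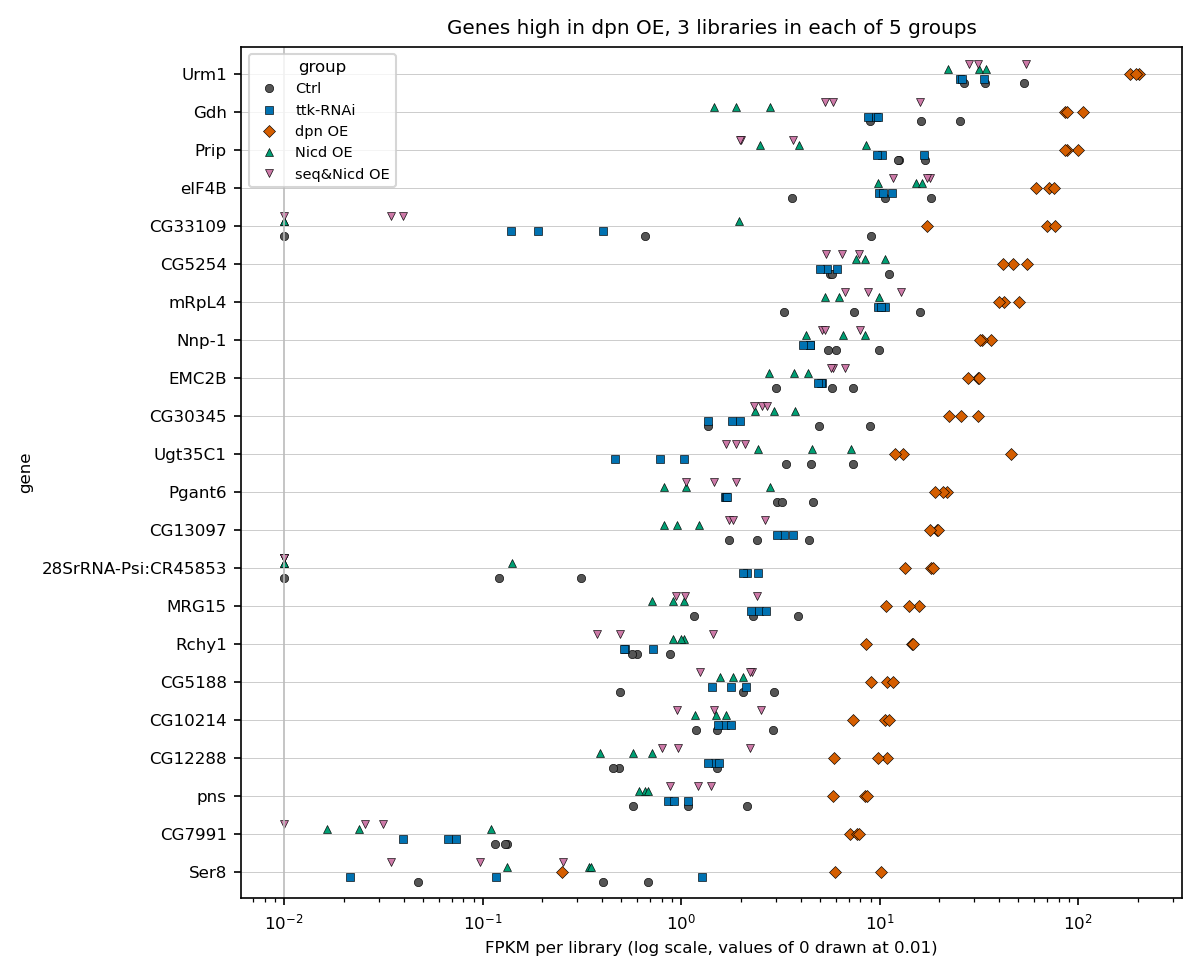
FPKM (log axis, values of 0 drawn at 0.01) of the 22 genes in each of the 15 libraries, with colours and symbols for the 5 groups and genes ordered by their dpn OE mean. The dpn OE libraries stand to the right of all others for 21 genes, and for Ser8 1 dpn OE library, at 0.25 FPKM, falls among the other groups.

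The height of the selected genes was smaller when the general shift of the dpn OE libraries was taken out. With libraries scaled to equal medians of the tested genes, the fold over the highest other group was 1.94 to 36.3, with a median of 3.52. All 22 genes still had their highest group mean in dpn OE, which the selection fixed in advance. Library medians ran from 2.26 FPKM in Nicd OE to 7.34 in dpn OE, a smaller span than the 4-fold limit. That 21 of the genes were at least 2-fold above the next group is likewise favoured by the selection. CG33109 and 28SrRNA-Psi:CR45853 were the only members left within the selection limits. CG7991 kept a 36.3-fold difference and missed those limits because its scaled dpn OE mean fell under 5 FPKM. The smallest scaled fold was that of eIF4B, at 1.94.

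**Figure D2:**
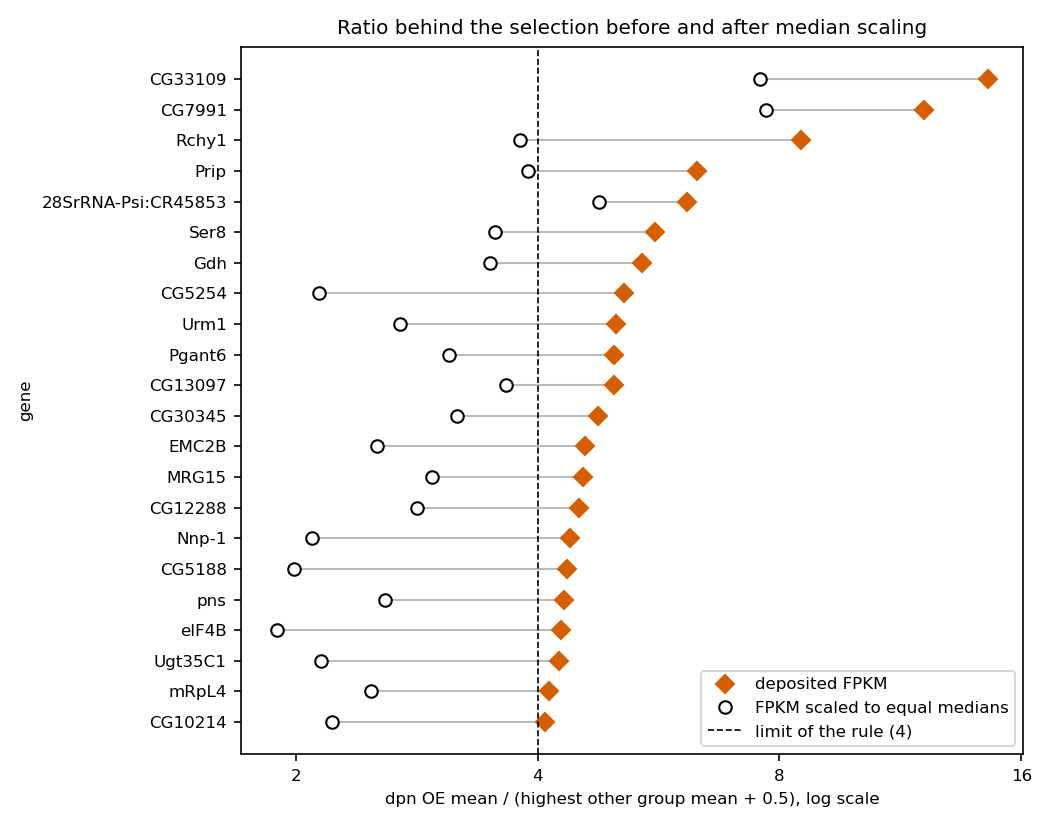
For each of the 22 genes, the dpn OE mean divided by the highest other group mean plus 0.5 (log axis), with FPKM as deposited (diamonds) and scaled to equal library medians (open circles); the dashed line is the selection limit of 4. Every ratio is smaller after scaling, from 14.5 to 7.56 for CG33109 and from 4.28 to 1.90 for eIF4B.

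Genes of membrane transport and metabolism included some of the most abundant members. Prip (2R:11436243-11442216) encodes an aquaporin, a water channel. It was at 99.9, 87.5 and 86.1 FPKM in dpn OE, against 17.0, 12.5 and 12.3 in Ctrl, 10.3, 9.71 and 16.7 in ttk-RNAi, 2.01, 1.99 and 3.65 in seq&Nicd OE and 3.94, 2.51 and 8.56 in Nicd OE. The 3 dpn OE libraries stood close together and far above the rest, and both Nicd groups lay below every Ctrl library. Gdh (3R:23935958-23943101) encodes mitochondrial glutamate dehydrogenase, which converts glutamate to alpha-ketoglutarate. It was at 86.2, 106 and 88.2 FPKM in dpn OE, 25.4, 8.92 and 16.2 in Ctrl, 8.75, 9.58 and 9.81 in ttk-RNAi, 5.28, 5.80 and 15.9 in seq&Nicd OE and 1.90, 1.46 and 2.79 in Nicd OE. Here the lowest group was Nicd OE, whose libraries were all below those of every other group. CG5254 (X:750347-758719), a member of the mitochondrial carrier family, was at 47.9 ± 6.78 in dpn OE and at 5.53 to 8.84 as a mean in the other groups. Of its exon bases, 24.3% are shared with CG13362 on the opposite strand, a gene at 0.142 ± 0.0303 FPKM in dpn OE.

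Ugt35C1 (3R:11126597-11128328) encodes a UDP-glycosyltransferase, an enzyme class that conjugates sugars to small lipophilic molecules. Its dpn OE libraries were at 13.1, 12 and 46.0 FPKM, against 7.38, 4.5 and 3.37 in Ctrl, 0.784, 0.465 and 1.03 in ttk-RNAi, 1.68, 2.09 and 1.90 in seq&Nicd OE and 2.44, 4.57 and 7.13 in Nicd OE. The dpn OE libraries did not overlap the others, but replicate 3 carried much of the mean. Without that library the fold over Ctrl was 2.47 in place of 4.67.

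Members that act in the secretory pathway were steadier. Pgant6 (3L:2782255-2786010) encodes a polypeptide GalNAc transferase, which adds the first sugar of mucin-type O-glycans. It was at 21.9, 20.9 and 19.0 FPKM in dpn OE, against 4.64, 3.04 and 3.23 in Ctrl, 1.67, 1.68 and 1.71 in ttk-RNAi, 1.06, 1.47 and 1.90 in seq&Nicd OE and 1.06, 0.816 and 2.80 in Nicd OE. Its 3 other manipulated groups all lay below the lowest Ctrl library. EMC2B (3R:16990334-16991878) encodes a subunit of the endoplasmic reticulum membrane complex, which inserts membrane proteins. It was at 30.2 ± 2.03 in dpn OE and at 3.61 to 6.08 as a mean elsewhere.

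Genes of RNA modification, the nucleolus and translation are grouped next, a grouping made from the members' roles after they were known. Urm1 (3L:7639811-7640446), a ubiquitin-like protein that carries sulfur for the thiolation of tRNA wobble bases, was the most abundant of all 22. It was at 182, 203 and 196 FPKM in dpn OE, against 53.6, 26.7 and 33.9 in Ctrl, 33.7, 25.4 and 26.0 in ttk-RNAi, 28.3, 31.3 and 54.7 in seq&Nicd OE and 22.0, 31.6 and 34.5 in Nicd OE. The ranges of the other 4 groups overlapped one another, with Ctrl replicate 1, at 53.6, and seq&Nicd OE replicate 3, at 54.7, above the rest. eIF4B (3L:27842669-27858271), an initiation factor that assists the helicase eIF4A in preparing mRNA for the ribosome, was at 71.3, 75.4 and 61.3 FPKM in dpn OE. It was at 18.1, 3.62 and 10.6 in Ctrl, and the means of ttk-RNAi, Nicd OE and seq&Nicd OE were 10.7, 13.8 and 15.7. The Ctrl libraries of eIF4B spread more widely than the means of the 4 groups outside dpn OE.

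mRpL4 (2L:16328059-16329132), a protein of the large subunit of the mitochondrial ribosome, was at 44.3 ± 5.21 in dpn OE, 8.92 ± 6.51 in Ctrl and 10.2 ± 0.410 in ttk-RNAi. Nnp-1 (2L:13363308-13366189), a nucleolar protein, was at 33.6 ± 2.37 in dpn OE and 7.15 ± 2.39 in Ctrl. CG12288 (2L:16900535-16902218), for which RefSeq lists the synonym RBM34 of an RNA-binding protein, was at 8.86 ± 2.64 in dpn OE and 0.819 ± 0.606 in Ctrl. All 3 kept non-overlapping groups, and CG12288 had the lower level. CG5188 (2L:10428829-10429988), listed by RefSeq as a methionine aminopeptidase of the kind that trims the start methionine of new proteins, was at 10.5 ± 1.35 in dpn OE and 1.78 to 1.92 as a mean elsewhere. CG10214 (3R:23766519-23767488), with the RefSeq synonym Rex2 of an oligoribonuclease, was at 9.70 ± 2.02 in dpn OE and 1.46 to 1.87 elsewhere. For both genes the 4 other groups had nearly equal means. The exon bases shared with a gene on the opposite strand were 6.57% for CG5188 and 14.8% for CG10214.

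Chromatin and protein turnover were represented by MRG15 and Rchy1. MRG15 (3R:15276440-15278109) encodes a chromodomain protein of the Tip60 acetyltransferase complex. It was at 15.7, 14.0 and 10.8 FPKM in dpn OE, 3.88, 1.16 and 2.30 in Ctrl, 2.46, 2.66 and 2.25 in ttk-RNAi, 1.04, 0.939 and 2.41 in seq&Nicd OE and 0.711, 0.908 and 1.03 in Nicd OE. Its Nicd OE libraries were all below its Ctrl libraries, and 10.9% of its exon bases are shared with CG4338 and l(3)neo43. Rchy1 (2L:6459015-6465669) encodes a RING-type E3 ubiquitin ligase. It was at 14.5, 14.7 and 8.57 FPKM in dpn OE, while the other 12 libraries ranged from 0.378 to 1.45. Its fold over the highest other group, Nicd OE, was 12.8.

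Ser8 and the pseudogene need separate reading. Ser8 (2R:13434207-13435045) encodes a serine protease, a class made in bulk by enterocytes. It was at 10.2, 5.94 and 0.25 FPKM in dpn OE and at 0.0215 to 1.28 in the other libraries, the highest of which was ttk-RNAi replicate 3. The low dpn OE replicate 3 lay below several Ctrl, ttk-RNAi and Nicd OE libraries, and without dpn OE replicate 1 the fold over the highest other group was 6.56 in place of 11.5. 28SrRNA-Psi:CR45853 (X:23200802-23201056) is a fragment of a ribosomal RNA gene with near-identical copies elsewhere in the genome, so its reads cannot be assigned with certainty. It was at 18.2, 13.4 and 18.6 FPKM in dpn OE, 2.15, 2.06 and 2.45 in ttk-RNAi, 0, 0.312 and 0.121 in Ctrl, 0.141, 0 and 0 in Nicd OE, and listed at 0 in all 3 seq&Nicd OE libraries. The Ctrl value rested on 3 reads in all, so the fold of 116 over Ctrl has a 95% interval from the exact Poisson limits of those reads of 39.6 to 562, which covers counting error only. The ordering of the groups, with ttk-RNAi second, rests on 368 reads in dpn OE and 92 in ttk-RNAi.

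No role is given here for CG33109, CG7991, CG13097, CG30345 and pns. CG33109 (3R:14220560-14221584) was at 69.4, 17.3 and 76.1 FPKM in dpn OE, 0, 9.04 and 0.661 in Ctrl, 0.191, 0.406 and 0.139 in ttk-RNAi, 0.0347, 0.0395 and 0 in seq&Nicd OE and 1.96, 0 and 0 in Nicd OE. Its Ctrl mean came almost wholly from replicate 2, and without that library the fold of dpn OE over the highest other group, then Nicd OE, was 83.2 in place of 16.8. CG7991 (3L:1674709-1715541) was at 7.12, 7.72 and 7.87 FPKM in dpn OE, 0.115, 0.132 and 0.129 in Ctrl, and at most 0.11 in each other library. Its dpn OE libraries lay close together, with a coefficient of variation of 5.26%, and far above every other library.

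CG13097 (2L:8512174-8514868) was at 19.4, 19.7 and 18.0 FPKM in dpn OE, 4.41, 1.74 and 2.42 in Ctrl, 3.28, 3.04 and 3.66 in ttk-RNAi, 1.75, 1.82 and 2.64 in seq&Nicd OE and 0.824, 0.956 and 1.23 in Nicd OE. Its Nicd OE libraries were below all others. CG30345 (2R:9148689-9151892) was at 25.7, 31.4 and 22.4 FPKM in dpn OE, 8.94, 1.36 and 4.93 in Ctrl, 1.98, 1.36 and 1.80 in ttk-RNAi, 2.55, 2.71 and 2.32 in seq&Nicd OE and 2.36, 2.93 and 3.75 in Nicd OE. Its fold over Ctrl was 5.22, and 8.42 without Ctrl replicate 1, and 24.2% of its exon bases lie in an annotated transposon insertion. The last of them, pns (3L:1537137-1544823), was at 8.44, 8.62 and 5.80 FPKM in dpn OE and 2.15, 0.572 and 1.08 in Ctrl.

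Spread among the dpn OE libraries was read as the coefficient of variation, which had a median of 13.5% over the 22 genes and 12.7% over the 4767 tested genes with a dpn OE mean of at least 5 FPKM. It was under 25% for 17 of the 22, and CG33109, Ser8 and Ugt35C1 had a range of over 2-fold. Replicate 3 was the lowest dpn OE library for 16 of the 22 genes, against 55.1% of all genes tested. Among the controls, replicate 1 was the highest Ctrl library for 18 of the 22 genes, against 50.7% of all genes tested. It was the highest of all 12 libraries outside dpn OE for 15 of the 22, against 18.9% of all genes tested. The selection limits the levels outside dpn OE, so these shares are a description only.

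Each dpn OE library was also left out of the selection in turn and its own level set against the 4 other groups. Those groups are the ones that the selection had chosen as low, so the counts are partly fixed by it and are given as a description. Without replicate 1, 28 genes were chosen, and 17 of them reached the same ratio of 4 in replicate 1. Without replicate 2, 19 of 27 chosen genes did so in replicate 2, and without replicate 3, 13 of 36 did so in replicate 3. At a ratio of 2 these counts were 25 of 28, 25 of 27 and 32 of 36. The members below 4 were mRpL4 and Ugt35C1 in replicate 1 and Ugt35C1 in replicate 2. In replicate 3 they were 8, namely CG5188, mRpL4, CG12288, pns, eIF4B, MRG15, CG10214 and Ser8, and Ser8 was also below 2. The lowest ratios were those of CG8299 in replicate 1, at 0.0509, the protease gene Jon66Ci in replicate 2, at 0.781, and CG12057 in replicate 3, at 0.0749, which are not members.

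The levels in the other 4 groups were free to differ, within a ceiling set by the selection, and were tested with limma over all 8209 genes. Ctrl was the highest of these 4 groups for 10 of the 22 genes (30.7% of all genes tested), ttk-RNAi for 6 (51.0%), seq&Nicd OE for 4 (11.2%) and Nicd OE for 2 (7.15%). Ctrl was the lowest of the 4 for none of the 22 (14.7% of all genes tested), while ttk-RNAi and Nicd OE were each the lowest for 8 (13.5% and 54.8%) and seq&Nicd OE for 6 (17.0%). The selection removes genes that are high in any of these 4 groups. The shares of all genes tested are therefore not a like comparison, and the ranks are a description only. All 22 genes passed the filter on low values, but CG33109, CG7991 and Ser8 only through the dpn OE libraries. The ranks above include these genes, which all had seq&Nicd OE as the lowest of the 4 groups. Their highest was Ctrl for CG33109 and CG7991 and ttk-RNAi for Ser8. The medians, and the counts with FPKM as deposited, are therefore also given below over the other 19 genes. Counts under other settings were not limited to the 19. With all libraries and FPKM as deposited on the log2(FPKM + 1) scale, CG33109, CG7991 and Ser8 had no call in any of these comparisons.

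In ttk-RNAi against Ctrl, 1 of the 22 genes rose and 3 fell (1 and 3 of the 19), where 44.3% of all genes tested were called in either direction (30.7% higher, 13.7% lower). 28SrRNA-Psi:CR45853 rose by 1.5 ± 0.15 (SE) on the log2(FPKM + 1) scale (adjusted p = 7.44e-07). Ugt35C1 fell by 1.75 ± 0.42, a 6.70-fold lower mean (adjusted p = 0.00316). Pgant6 fell by 0.77 ± 0.25 (adjusted p = 0.02) and CG30345 fell by 0.94 ± 0.36 (adjusted p = 0.0468). The call of CG30345 was kept in 3 of 21 alternative settings, with adjusted p from 0.000125 to 0.227, and that of Pgant6 in 17, with adjusted p from 0.000301 to 0.0700. Those of Ugt35C1 and 28SrRNA-Psi:CR45853 were kept in all 21. Pgant6 lost its call without Ctrl replicate 1 (adjusted p = 0.0700) or each of the ttk-RNAi replicates (adjusted p = 0.0576, 0.0556 and 0.0536).

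In Nicd OE against Ctrl, 5 of the 22 genes fell (5 of the 19) and none rose, where 39.3% of all genes tested were called (5.07% higher, 34.2% lower). Gdh fell by 2.46 ± 0.37 on the log2 scale, an 8.22-fold lower mean (adjusted p = 0.000153). Prip fell by 1.43 ± 0.32 (adjusted p = 0.00314) and CG13097 fell by 0.89 ± 0.23 (adjusted p = 0.00657). These 3 calls were kept in all 21 alternative settings. Pgant6 fell by 0.92 ± 0.25 (adjusted p = 0.00938), a call that was lost without Nicd OE replicate 2 (adjusted p = 0.0599). MRG15 fell by 0.80 ± 0.27 (adjusted p = 0.0309), which was kept in 14 of 21 settings, with adjusted p from 0.00289 to 0.149. MRG15 lost its call without Ctrl replicate 1 or 3 (adjusted p = 0.149 and 0.0672), without Nicd OE replicate 1 or 2 (adjusted p = 0.0995 and 0.0741), with no filter on low values (adjusted p = 0.0612), and with median scaling or quantile normalization (adjusted p = 0.0672 and 0.131).

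In seq&Nicd OE against Ctrl, 2 of the 22 genes fell (2 of the 19) and none rose, where 34.5% of all genes tested were called (13.3% higher, 21.2% lower). Prip fell by 2.09 ± 0.32 on the log2 scale, a 5.47-fold lower mean (adjusted p = 0.000131), in all 21 settings. Pgant6 fell by 0.90 ± 0.25 (adjusted p = 0.0109), a call lost without seq&Nicd OE replicate 1 (adjusted p = 0.0557). Both genes thus fell in both groups that carry Nicd, which share the Ctrl libraries. Set directly against Nicd OE, seq&Nicd OE had 1 of the 22 genes higher (1 of the 19) and none lower, where 19.6% of all genes tested were called (15.8% higher, 3.85% lower). That gene was Gdh, 4.39-fold higher at 9 ± 6 against 2.05 ± 0.682 FPKM (log2 difference 1.58 ± 0.37, adjusted p = 0.00536). Under another scaling most calls of this comparison were lower: with median scaling 1 gene was higher and 3 were lower (13.2% and 13% of all genes tested), and with quantile normalization 1 and 4 (12.6% and 13.7%).

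**Figure D3:**
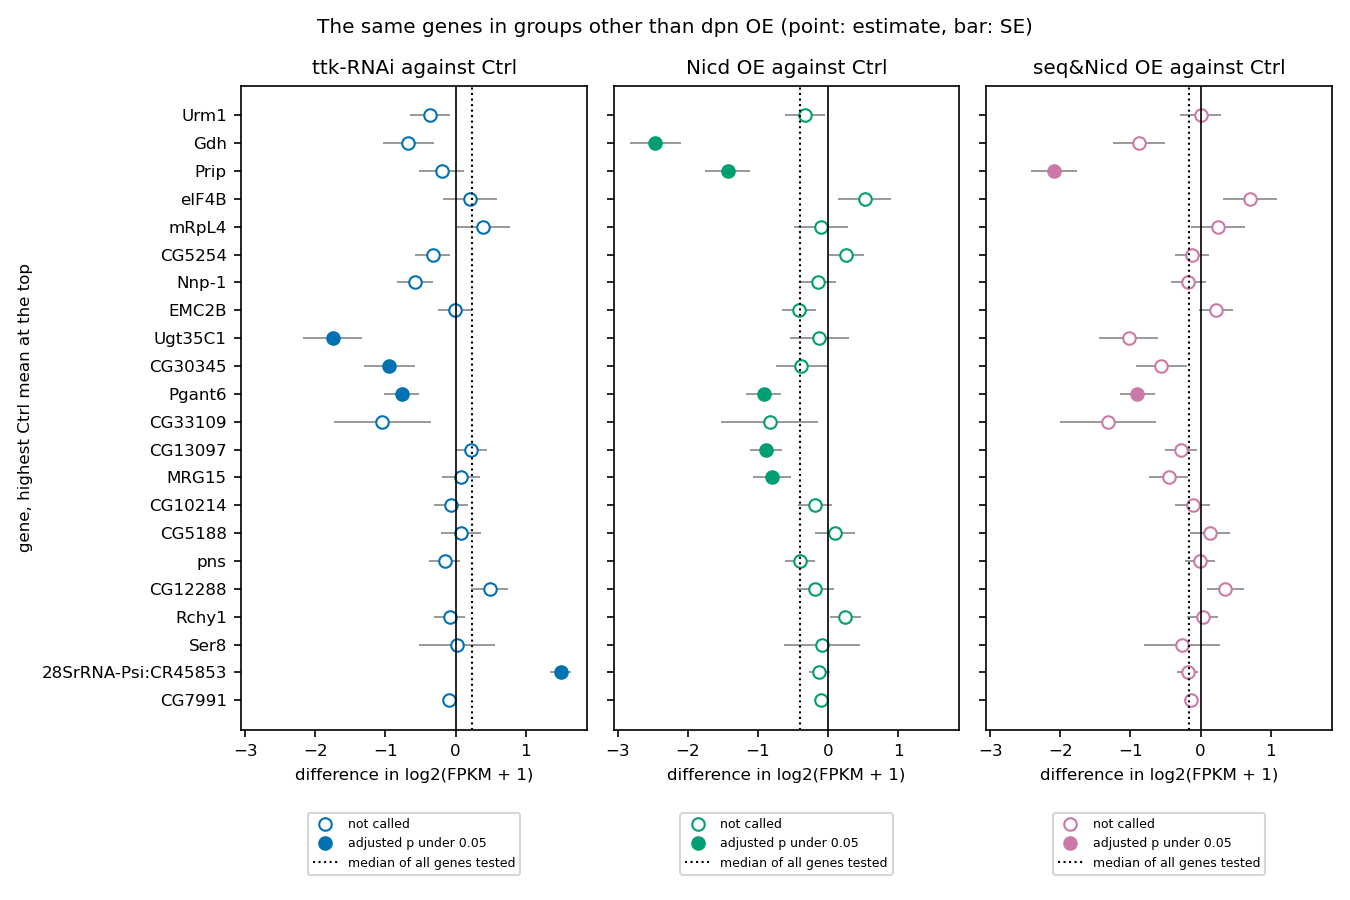
Difference from Ctrl in log2(FPKM + 1) of the 22 genes in the 3 groups other than dpn OE, with bars for the SE and filled points for an adjusted p under 0.05; the dotted line is the median of all genes tested. Gdh in Nicd OE, at -2.46, and Prip in seq&Nicd OE, at -2.09, lie furthest below 0, and 28SrRNA-Psi:CR45853 in ttk-RNAi lies furthest above, at 1.5.

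The median difference of the 22 genes was -0.08 in ttk-RNAi, -0.16 in seq&Nicd OE and -0.18 in Nicd OE, beside 0.24, -0.17 and -0.40 for all genes tested. Over the 19 genes it was -0.08, -0.12 and -0.19. Scaling to equal medians moved these, in the same order, to -0.30, -0.09 and 0.09 for the 22 genes, to -0.31, -0.01 and 0.11 for the 19, and to -0.05, -0.05 and -0.03 for all genes tested. With that scaling the ttk-RNAi calls among the 22 genes were 1 higher and 7 lower, and all genes tested were 24.0% higher and 24.2% lower. In Nicd OE they were 3 higher and 4 lower, beside 18.2% and 18.5% of all genes tested.

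The selected genes were spread over the genome, with 6 on 2L, 3 on 2R, 5 on 3L, 6 on 3R and 2 on X. None of the 43 nearest tested neighbours was itself selected. Of these neighbours, 46.5% had a dpn OE mean at least 2 times the Ctrl mean, beside 34.9% of all genes tested. The 3 neighbours at 4-fold or more were CG4278, which overlaps mRpL4 and was at 32.6 ± 3.01 in dpn OE and 6.61 ± 4.65 in Ctrl, the tRNA gene tRNA:Ile-AAT-1-3 beside Ser8, and PIG-U beside CG13097. They were chosen for mention after their values were seen. EMC2A, the paralog that lies next to EMC2B, was at 11.8 ± 1.02 in dpn OE and 7.56 ± 1.62 in Ctrl. Exon bases shared with another gene were absent for 13 of the 22 and above 10% for 4. Strand was not stated for the read counting, so reads of overlapping genes on opposite strands may not have been told apart.

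Families and partners of the selected genes were read next, from lists that leave out the 22 genes. Of 196 such relatives, 162 were tested in dpn OE against Ctrl. In that contrast 113 rose, 8 fell and 41 were not called, where 57.1% of all genes tested were called (44.6% higher, 12.5% lower). Of the 113, 55 were mitochondrial ribosomal protein genes and 21 nucleolar ribosome biogenesis genes, so the pooled count rests largely on 2 lists. The median difference of the relatives was 0.90 on the log2(FPKM + 1) scale, beside 0.50 for all genes tested. A relative with a dpn OE mean of at least 5 FPKM and a ratio of at least 4 would itself be a selected gene. The lists leave those out, so the highest ratio among the relatives, 3.83 for Polr1B, was held under 4 in advance. With libraries scaled to equal medians, 22.3% of all genes tested were higher and 24.9% lower, and the counts of the lists were smaller, as given beside each.

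Mitochondrial ribosomal proteins, the partners of mRpL4, were higher in 55 of 69 tested, and none fell. With median scaling 34 rose and 1 fell. mRpL10 went from 2.38 ± 0.630 FPKM in Ctrl to 17.0 ± 3.04 in dpn OE (log2 difference 2.41, adjusted p = 9.04e-06), and mRpL20 from 5.86 ± 1 to 23.0 ± 3.74 (1.81, adjusted p = 2.81e-05). In the small subunit mRpS10 went from 8.33 ± 2.84 to 32.9 ± 4.90 (1.90, adjusted p = 0.000228). mRpL38, mRpL42 and mRpL55 differed by -0.15, 0.02 and 0.04 and were not called.

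Nucleolar ribosome biogenesis genes, listed with Nnp-1, were higher in 21 of 27 tested, and none fell (12 rose and 1 fell with median scaling). Polr1C, a subunit of RNA polymerases I and III, went from 4 ± 3.08 in Ctrl to 27.3 ± 3.47 FPKM in dpn OE (log2 difference 2.71, adjusted p = 4.90e-05). Polr1B, the second-largest subunit of RNA polymerase I, went from 2.74 ± 1.56 to 13.5 ± 1.54 (2.02, adjusted p = 5.22e-05). The nucleolar gene wcd went from 1.82 ± 0.866 to 9.70 ± 1.37 (1.96, adjusted p = 1.84e-05). The abundant genes Fib, encoding fibrillarin, and nop5 differed by 0.61 and 0.65 and were not called.

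Of the Tip60 complex, which holds MRG15, 11 of 12 genes rose and 1 fell, or 3 and 1 with median scaling. pont, a helicase subunit, went from 4.91 ± 0.995 to 16.8 ± 1.07 FPKM (log2 difference 1.60, adjusted p = 4.09e-05), and Nipped-A from 4.11 ± 1.5 to 11.7 ± 0.894 (1.35, adjusted p = 7.52e-05). E(Pc) went the other way, from 6.90 ± 1.81 to 3.55 ± 0.812 (-0.78, adjusted p = 0.00654). In the Urm1 pathway 3 of 4 genes rose, or 2 with median scaling. Nfs1, the cysteine desulfurase that supplies sulfur, went from 3.44 ± 1.56 to 16.6 ± 0.750 FPKM (2.06, adjusted p = 2.79e-05), and Ctu2, of the tRNA thiolation enzyme, from 1.12 ± 0.230 to 4.10 ± 0.294 (1.27, adjusted p = 6.42e-06). Uba4, which activates Urm1, differed by 0.58 and was not called.

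The endoplasmic reticulum membrane complex had 7 of 9 genes higher, a count that dropped to 1 with median scaling, where EMC2A differed by -0.042. Among UDP-glycosyltransferases 8 of 18 rose and 1 fell (3 and 5 with median scaling), a share of higher calls close to the 44.6% of all genes tested. Ugt36D1 went from 0.0985 ± 0.0938 to 3.92 ± 1 FPKM (log2 difference 2.15, adjusted p = 4.56e-07), and Ugt303B2 from 2.71 ± 1.17 to 0.0901 ± 0.0462 (-1.72, adjusted p = 0.00659). Of the polypeptide GalNAc transferases 3 of 6 rose and 1 fell (2 and 1 with median scaling), also a share of higher calls close to that of all genes tested. Pgant1 was at 4.21 ± 2.12 in Ctrl and 14.1 ± 1.81 in dpn OE, and Pgant2 at 1.87 ± 0.594 and 0.217 ± 0.0365. Of the genes of glutamate metabolism listed with Gdh, 3 of 7 rose and 1 fell (1 and 1 with median scaling), again a share close to that of all genes tested. Gs2, a glutamine synthetase, was the gene that fell, from 7.66 ± 2.05 to 2.99 ± 2.13 (adjusted p = 0.00312), and P5cr, which makes proline, rose from 0.657 ± 0.480 to 3.06 ± 0.688 (adjusted p = 9.90e-05).

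The initiation factors that work with eIF4B moved in both directions. Of 8 tested, 1 rose, 3 fell and 4 were not called, beside 44.6% higher and 12.5% lower of all genes tested (0 rose and 6 fell with median scaling). pAbp, the poly(A)-binding protein, went from 1373 ± 663 to 303 ± 49.3 FPKM (log2 difference -2.04, adjusted p = 0.000225), and eIF4H1, a cofactor of eIF4A like eIF4B, from 237 ± 85.5 to 81.3 ± 6.83 (-1.46, adjusted p = 0.00276). eIF4A went from 1187 ± 266 to 814 ± 71.2 (-0.52, adjusted p = 0.0280), a call lost without Ctrl replicate 2 (adjusted p = 0.0611) or dpn OE replicate 1 or 3 (adjusted p = 0.0920 and 0.0741). Thor, the eIF4E-binding repressor of translation, went from 357 ± 35.2 to 610 ± 117 (0.76, adjusted p = 0.0187), a call lost with median scaling and without dpn OE replicate 2 or 3 (adjusted p = 0.0872 and 0.0545). Of the aquaporins other than Prip 2 were tested, and bib rose (0.90, adjusted p = 0.0428) while Eglp2 fell (-0.79, adjusted p = 0.0113). The call of bib was lost with median scaling and when any 1 of 9 libraries was left out, with adjusted p up to 0.219 without Ctrl replicate 2.

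**Figure D4:**
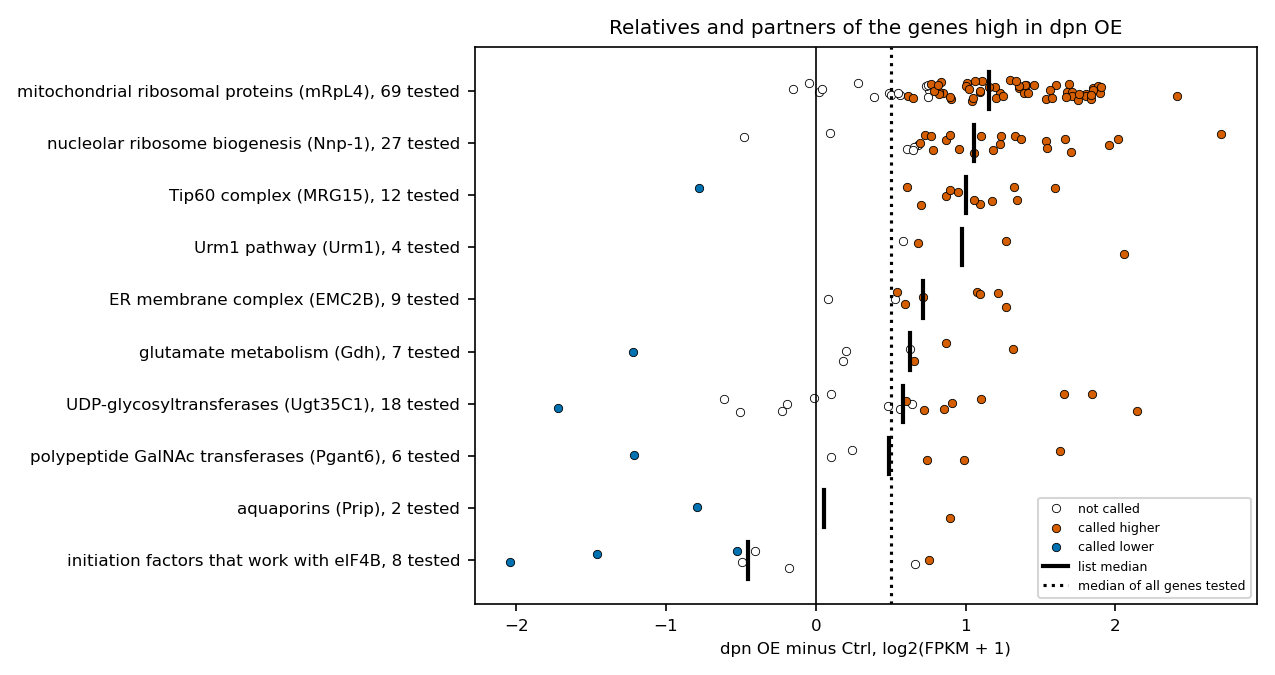
Difference between dpn OE and Ctrl in log2(FPKM + 1) of the 162 tested relatives and partners of the selected genes, 1 point per gene (higher, lower or not called at an adjusted p of 0.05), with a bar at each list's median and a dotted line at the median of all genes tested, 0.50. The mitochondrial ribosomal list has its median at 1.15 and the nucleolar list at 1.06, while the initiation factors have theirs at -0.45.

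The bHLH-Orange family, to which dpn belongs, was read with its corepressor gro. Of 11 tested in dpn OE against Ctrl, dpn rose, 5 fell and 5 were not called, beside 12.5% of all genes tested called lower. With median scaling none rose and 8 fell, beside 24.9% of all genes tested called lower. The E(spl) genes are direct targets of Notch signalling. E(spl)m7-HLH went from 28.4 ± 8.28 in Ctrl to 1.38 ± 0.346 FPKM in dpn OE (log2 difference -3.60, adjusted p = 4.06e-07), and E(spl)m8-HLH from 13.2 ± 5.91 to 0.286 ± 0.0316 (-3.39, adjusted p = 1.09e-06). E(spl)m3-HLH, E(spl)mgamma-HLH and Hey fell by 1.86, 1.35 and 1.03. In Nicd OE, E(spl)m7-HLH and E(spl)m8-HLH also had lower means than in Ctrl, at 8.08 ± 1.61 and 0.703 ± 0.692. E(spl)mgamma-HLH had a higher mean there, at 65.9 ± 8.67 beside 5.40 ± 1.54 in Ctrl. What these levels say of Notch activity was not tested. E(spl)mbeta-HLH, at 662 ± 329 and 459 ± 51.0, was not called. Nor were hry, E(spl)mdelta-HLH, gro or cwo, which was at 40.8 in both groups.

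Markers of other cells were read in the same contrast. Of the enterocyte markers 4 of 9 rose and 1, lab, fell, a share of higher calls close to the 44.6% of all genes tested, and their summed FPKM was 146 to 282 in Ctrl libraries and 406 to 439 in dpn OE libraries. The 4 that rose were the proteases Jon65Aiii and betaTry and the myosins Myo31DF and Myo61F. With median scaling none of the 9 was called higher and 3 were called lower, beside 22.3% and 24.9% of all genes tested. The call of betaTry was also lost without Ctrl replicate 3 or dpn OE replicate 2 (adjusted p = 0.0761 and 0.0606). Of the enteroendocrine markers 5 of 6 fell, beside 12.5% of all genes tested called lower (5 with median scaling, beside 24.9%). Their summed FPKM was 10035 to 58725 in Ctrl libraries and 2731 to 4203 in dpn OE libraries. The transcription factor gene pros went from 8.88 ± 2.21 to 0.560 ± 0.0591 (log2 difference -2.64, adjusted p = 4.85e-07), and the peptide gene Tk fell by 4.22. Other cell types had most of their markers under 1 FPKM as a mean in both Ctrl and dpn OE, namely 5 of 7 for muscle, 9 of 10 for haemocytes and fat body, 4 of 4 for trachea and glia and 6 of 6 for tubule and hindgut. Of the defining markers, Mhc was at 0.0497 ± 0.0168 in Ctrl and 0.0304 ± 0.0116 in dpn OE, He was listed at 0 in every library of both, and repo and Uro were at or below 0.214 in both. The exceptions were Tm1 and up in muscle and srp in the haemocyte and fat body list. The muscle gene up fell from 1.05 ± 0.0665 to 0.337 ± 0.256 (adjusted p = 0.0023), and srp, a GATA factor gene, fell from 4.81 ± 1.57 to 2.36 ± 0.757 (adjusted p = 0.0078). Act57B, a muscle actin gene that was not tested, was at 0.00504 ± 0.00873 in Ctrl and 0.55 ± 0.938 in dpn OE. The summed FPKM of the muscle list, 71.3 to 149 in Ctrl libraries and 121 to 138 in dpn OE libraries, came mostly from Tm1, and that of the haemocyte and fat body list was 4.80 to 6.76 and 2.24 to 3.59. In the germline list piwi rose from 0.157 ± 0.0661 to 1.21 ± 0.570 (adjusted p = 0.00330). AGO3 went the other way, from 1.33 ± 0.524 to 0.787 ± 0.0873, and was not called (-0.36, adjusted p = 0.0986), and bam was not tested. With median scaling 1 gene of this list was called higher and 1 lower. Of 5 progenitor markers listed, 3 were matched. The markers esg and Dl were not matched, so their levels were not read. Sox21a and Sox100B were high and not called, at 82.9 ± 51.0 and 142 ± 20 in Ctrl and 68.9 ± 32.1 and 160 ± 10.6 in dpn OE. The third, klu, fell (-0.77, adjusted p = 0.0463), a call lost when any of 10 libraries was left out, with adjusted p up to 0.169 without Ctrl replicate 3. The part of a changed mix of cells in the height of the 22 genes was not tested.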

How the data were processed

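RNA-seq libraries from 15 samples in 5 groups of 3 were grouped by their titles. The deposited table, made by the authors, holds 1 FPKM value for each gene in each library, and STAR 2.6.1a, DESeq2 and build BDGP6 are named without roles in the submitters' processing notes. The counting tool and strand setting are not given in the sources used here. Symbols and coordinates came from BDGP6.54 (17252 identifiers matched, 306 not). FPKM steps of low genes gave whole reads, within 0.02 of a read, for 97.8% to 98.3% of values up to 20 reads, from which depth was estimated.

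The 8209 genes that reached 1 FPKM in 3 or more libraries were fitted as log2(FPKM + 1) with limma 3.58.1 in R 4.3.3 (5 group means, two-sided, eBayes with a trend, 10 residual degrees of freedom). This scale understates changes of low genes. Adjusted p-values are Benjamini-Hochberg over the genes of 1 contrast, called under 0.05. In data simulated for Nicd OE against Ctrl over 8209 genes, 46 of 50 genes changed by -2, 21 of 50 by -1, 26 of 50 by 1 and 47 of 50 by 2 on the log2 scale were called, with 13 of 8009 unchanged genes. The changed genes all had a mean log2(FPKM + 1) above 1, and noise was drawn independently for each gene and library. Changes of lower genes and shifts of whole libraries were therefore not simulated.

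All 22 selected genes are named, with the 3 nearest on each side of the limit. The members and gene lists were chosen with earlier results of these data known. The relatives were listed after the members' values had been seen, and 1 gene listed in error was removed after its value was seen. The alternatives were another pseudocount (0.1), no filter, scaling to equal medians, quantile normalization, the replicate number as a block, 12 libraries without dpn OE, each library left out, and changed selection limits. Deviations from the group means in libraries of the same replicate number correlated at 0.20 to 0.43 between Nicd OE and seq&Nicd OE. Between other groups these correlations ran from -0.19 to 0.26. Libraries of unlike numbers were not compared, so whether replicate numbers pair libraries was not tested. Promoter sequences were not analysed here.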

Additional observations from a re-analysis of the deposited data

How the results depend on the processing

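The selection gave 112 genes at a ratio of 3, 5 at 6, 53 with mean + 0.1, 14 with mean + 1, 45 with medians (18 of the 22 among them), 2 with median scaling and, in an alternative chosen after seeing the data, 8 with equal FPKM sums. Leaving out a library gave 19 to 37 genes, with 37 without Ctrl replicate 1 and 36 without dpn OE replicate 3. In the library left out of the selection, dpn OE replicate 3, 32 genes reached a ratio of 2. Members called in ttk-RNAi numbered 4, and 8 with median scaling, 9 with quantile normalization and 2 to 6 with a library left out (2 without each of the ttk-RNAi replicates). In Nicd OE 5 became 3 to 8 (8 without Ctrl replicate 2, 3 without Nicd OE replicate 2). In seq&Nicd OE 2 became 4 with a pseudocount of 0.1 and 1 to 5 with a library left out (4 and 5 without Ctrl replicate 1 and 2, 1 without seq&Nicd OE replicate 1). Over all alternatives of this contrast, CG33109 was called lower in 1 of 20 settings and CG7991 in 1 of 17. Both passed the filter on low values only through the dpn OE libraries. In seq&Nicd OE against Nicd OE 1 higher became 4 with median scaling (1 higher, 3 lower), 2 with a pseudocount of 0.1, 5 with quantile normalization (1 higher, 4 lower) and 1 to 3 with a library left out (3 without Ctrl replicate 1 or 2, 2 without dpn OE replicate 3). The bHLH-Orange calls ranged from 6 to 8 and the markers of other cells from 10 to 14 with a library left out. With the replicate number as a block the counts were 3, 5, 2 and 1 for the 4 contrasts of the members, 6 for bHLH-Orange genes and 13 for markers, and no other call of the members than that of CG30345 in ttk-RNAi was lost. With median scaling the difference turned negative for "EMC2A, dpn OE against Ctrl" (-0.042) and "Got2, dpn OE against Ctrl" (-0.033). The cause of these changes was not tested. Whole-read counts of the 22 genes in dpn OE were at least 359 per group, so depth limits mainly the low values outside dpn OE.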
